A study of Mus musculus with 36 samples.

Results

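Livers of mice heterozygous for an Apob allele were compared directly with livers of mice heterozygous for a Pax3 allele, with no wild type array in the comparison. The arrays titled Apob and Pax3 were taken by title, 4 of each, which is 8 of the 36 arrays of the series. Gene expression was measured on Affymetrix arrays, 1 per mouse, in 9 groups of 4 female mice from lines with neural tube defects and their controls.

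The Apob group carried the allele Apobtm1Unc, a targeted allele of the apolipoprotein B gene, and the labels call its response to dietary folic acid resistant. The Pax3 group carried Pax3Sp2H (splotch), a mutated allele of the gene for the embryonic transcription factor PAX3, and is labelled responsive. Every mouse of both groups was a heterozygous female of 6 to 8 weeks, fasted for 4 to 5 hours before a liver piece of about 0.5 cm3 was taken, and the labels list no other treatment. Both lines were given the same controls, C57BL/6J wild type (B6) females of that age, which serve below only as a reference level. The strain on which each allele was kept is not given in the sources used here, so effects of the mutated genes and of other differences between the lines cannot be told apart.

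Apolipoprotein B is the structural protein of the very low density lipoproteins that the liver secretes, and Pax3 acts mainly in the embryo, in the dorsal neural tube and the neural crest. Many genes of metabolism in mouse liver differ between the sexes, because growth hormone reaches the liver in separate pulses in males and more evenly in females and acts through the transcription factor STAT5. Genes of steroid, bile acid and drug metabolism are prominent among them, and the factors HNF6 and CUX2 are also tied to the female pattern.

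The sequences before the transcription start are shown for 4 genes called higher in Apob livers, picked after the matches were seen to show windows with and without them, because STAT5 and HNF6 are known regulators of sex-biased liver genes. They are the 250 bases upstream of the start in RefSeq (GRCm38.p6), 5′ to 3′ on the gene's strand: C8a at chr4:104876399-104876648 (minus strand), Keg1 at chr19:12695540-12695789 (plus strand), Mup10 at chr4:60582156-60582405 (minus strand) and Hsd3b5 at chr3:98645535-98645784 (minus strand). Capitals mark matches to the STAT5 motif TTCNNNGAA, which reads alike on both strands, and to the HNF6 motif ATTGAT on either strand (ATCAAT on the other).
C8a: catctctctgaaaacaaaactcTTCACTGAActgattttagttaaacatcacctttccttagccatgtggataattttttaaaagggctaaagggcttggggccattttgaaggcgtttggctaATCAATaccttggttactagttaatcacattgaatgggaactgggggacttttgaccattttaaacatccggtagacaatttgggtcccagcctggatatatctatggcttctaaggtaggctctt
Keg1: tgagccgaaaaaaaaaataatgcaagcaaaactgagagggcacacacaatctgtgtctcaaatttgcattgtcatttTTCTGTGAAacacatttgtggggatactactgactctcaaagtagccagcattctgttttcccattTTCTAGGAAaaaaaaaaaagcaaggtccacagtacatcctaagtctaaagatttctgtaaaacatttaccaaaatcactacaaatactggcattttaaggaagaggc
Mup10: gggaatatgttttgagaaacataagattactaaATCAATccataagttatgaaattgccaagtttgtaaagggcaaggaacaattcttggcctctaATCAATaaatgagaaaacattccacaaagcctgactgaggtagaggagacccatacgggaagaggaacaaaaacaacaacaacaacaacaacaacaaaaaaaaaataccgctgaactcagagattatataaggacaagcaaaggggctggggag
Hsd3b5: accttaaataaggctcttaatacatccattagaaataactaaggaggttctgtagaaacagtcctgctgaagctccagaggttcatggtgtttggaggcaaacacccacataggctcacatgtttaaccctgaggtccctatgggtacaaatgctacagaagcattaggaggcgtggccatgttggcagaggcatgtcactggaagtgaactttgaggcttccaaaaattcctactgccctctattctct
The C8a window held 1 match to each motif, that of Keg1 held 2 to STAT5, that of Mup10 held 2 to HNF6, and that of Hsd3b5 held none of either. Among the tested genes with a listed promoter, 634 of 10345 windows (6.13%) held the STAT5 letters and 417 (4.03%) the HNF6 letters. Among genes called higher in Apob livers each was in 3 of 34 windows (8.82%), and among those called lower STAT5 was in 4 of 72 (5.56%) and HNF6 in 1 (1.39%). A match is a description of these letters and shows no binding.

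Values are MAS5 signals, the linear brightness of a probe set after the authors' scaling of each array. Differences are Apob minus Pax3 on the scale log2(signal + 23), with the standard error from limma, and this scale understates the change of dim genes. A gene was called at a limma adjusted p below 0.05 (two-sided, Benjamini-Hochberg over the 12802 genes tested), and p-values measure the spread between these 8 mice. Correlations between arrays were 0.954 to 0.975 within the Apob group, 0.945 to 0.978 within the Pax3 group and 0.920 to 0.965 between them. The ratio of 3′ to 5′ control signal moved with the groups: it was 0.729 to 0.789 on Apob and 0.811 to 0.849 on Pax3 arrays for GAPDH, and 2.99 to 5.21 against 6.65 to 11.1 for pyruvate carboxylase. Each gave p = 0.0286 in a two-sided exact permutation test, the smallest that 70 splits allow, and 0.0857 after adjustment over 6 measures. The ratios of actin (1.63 to 2.24 against 1.78 to 1.97) and of the transferrin receptor (1.30 to 6.57 against 2.55 to 4.14) overlapped. What part these differences in RNA or labelling had in the gene results was not tested.

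**Figure D1:**
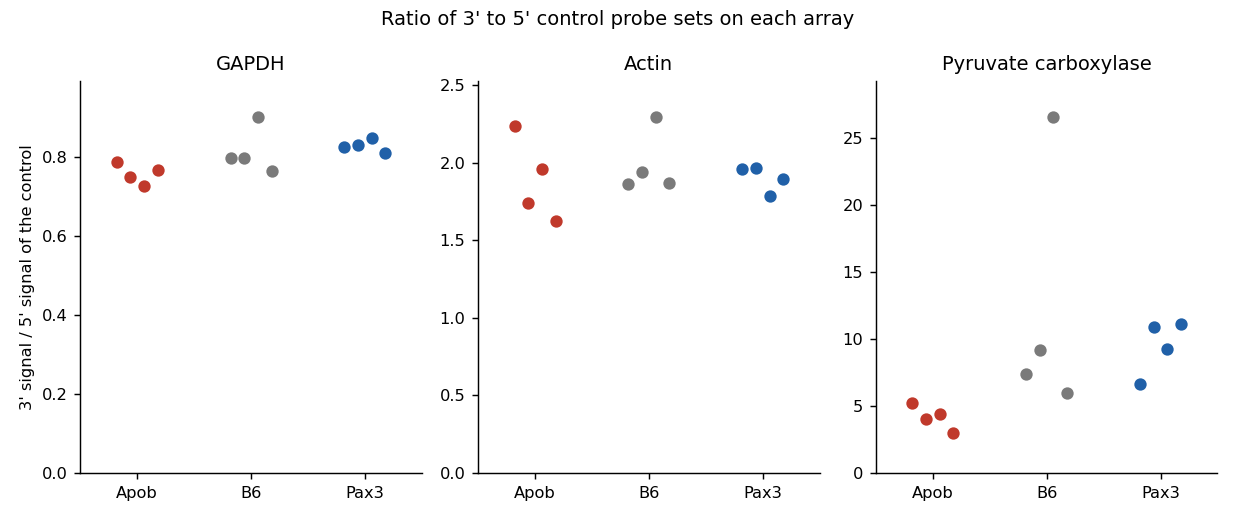
Ratio of 3′ to 5′ signal (y axis, no unit) for 3 control transcripts on each array, 1 point per mouse, by group (x axis: Apob, B6 and Pax3). For GAPDH and pyruvate carboxylase the 4 Apob arrays lay below the 4 Pax3 arrays, and for actin the groups overlapped.

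The mutated Apob gene was lower in Apob heterozygotes, which checks the labels. Its signal was 2654, 11144, 5339 and 12260.2 on Apob replicates 1 to 4 and 22691, 25703, 23134 and 27153 on Pax3 replicates 1 to 4. The groups did not overlap, and Apob replicates 1 and 3 were the lowest. The log2 difference was -1.89 ± 0.39 (limma adjusted p = 0.0465), and Apob was not called without Apob replicate 3 or Pax3 replicate 1, 2, 3 or 4 (adjusted p from 0.0714 to 0.142). Its other probe set had a difference of -2.49. B6 livers read 17299 to 27268, a range that held all 4 Pax3 values. Where these probe sets lie relative to the altered part of the allele is not given in the sources used here. Pax3 itself was near background, with 46.6, 51.2, 119 and 79.3 on Apob and 107, 11.2, 6.44 and 17.3 on Pax3 arrays, and was not tested.

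In all, 130 of 12802 genes were called (1.02%), 38 higher (0.297%) and 92 lower (0.719%) in Apob livers. Among them 83 differed by more than 2-fold and 12 by more than 4-fold on this scale. Of all 12802 genes, 2163 had an unadjusted p below 0.05. The median log2 difference over all tested genes was 0.03. The 4 Apob values lay wholly above or below the 4 Pax3 values in 1421 genes (11.1%), above in 739 (5.77%) and below in 682 (5.33%), and they did so in all 130 called genes. Single mice moved the count: it was 45 without Apob replicate 3, 65 without Pax3 replicate 2, 80 without Pax3 replicate 1 and 85 without Apob replicate 2. In all, 43 genes, 5 higher and 38 lower, were called whichever 1 of the 8 arrays was left out.

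**Figure D2:**
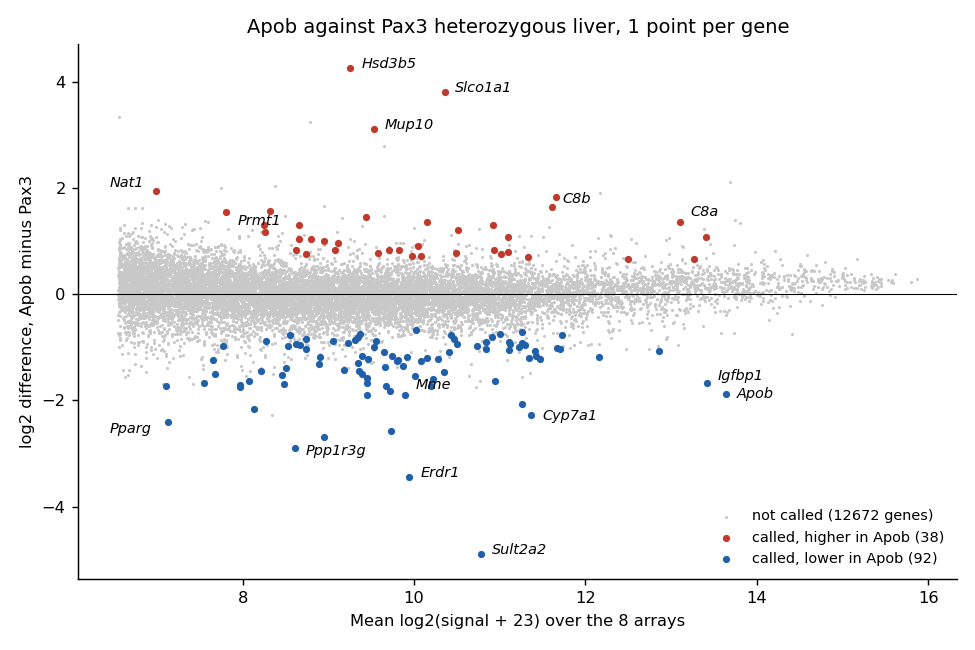
Log2 difference, Apob minus Pax3 (y axis), against the mean log2(signal + 23) over the 8 arrays (x axis), 1 point per tested gene, with the 38 genes called higher in red and the 92 called lower in blue. Hsd3b5 and Slco1a1 had the largest increases and Sult2a2 the largest decrease.

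Set beside the B6 level, 85 of the 130 called genes, 23 higher and 62 lower, had Apob values wholly outside the B6 range in the direction of the call and Pax3 values that overlapped it in part or in full. The Apob values lay wholly above the 4 B6 values in 27 of the 38 genes called higher and wholly below them in 65 of the 92 called lower. The Pax3 values lay wholly below B6 in 8 of the 38 and wholly above B6 in 7 of the 92. Over all tested genes the Apob values did not overlap B6 in 1254 (9.8%) and the Pax3 values in 711 (5.55%). In a few genes the lines lay on opposite sides of B6: Slco1a1, C8b and Crb3, a polarity protein, were above it in Apob and below it in Pax3, and Nrip1, a nuclear receptor corepressor, Zkscan3, a zinc finger repressor, and an Ass1 probe set were the reverse. Sh3d19, an adaptor protein, was the 1 called gene that lay above B6 in both lines. Crb3, Nrip1, Zkscan3 and Sh3d19 were picked out by this count after their values were seen. Both sets of values rest on the same 4 B6 arrays.

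Genes known to be higher in male than in female liver had higher values in Apob than in Pax3 females. All 17 tested genes of the list had positive differences (median 1.24, against 0.03 for all genes). Of these, 4 were called and rose (Hsd3b5, Slco1a1, C8a and C8b), against 0.297% of all genes. An unadjusted p below 0.05 was seen in 13, against 2163 of all 12802. In 8 every Apob value was above every Pax3 value, against 5.77% of all genes. Cyp4a12a is counted in the 17, the 13 and the 8. It passed the filter (a signal of 70.7) only through its Apob values, which averaged 525 against 7.09 in Pax3 livers. Its positive sign was thus fixed by the filter, and the list averages below include it. The Apob arrays are those whose contrast with B6 is known to show this direction, so it is not independent evidence of it. Relative to the mean of the 8 arrays, the list averaged 0.53, 0.39, 1.42 and 0.78 on the Apob arrays, -0.81, -0.43, -1.19 and -0.69 on the Pax3 arrays and -0.36 to 0.02 on the B6 arrays. The B6 arrays thus lay between the lines, and Apob replicate 3 and Pax3 replicate 3 were the extremes. Of the 4 called genes only C8b was called without Apob replicate 2, 3 or 4 or without Pax3 replicate 1. Cyp4a12a was then called without Apob replicate 2, Cyp7b1 without Apob replicate 4 and Nudt7, a peroxisomal hydrolase of coenzyme A, without Pax3 replicate 1. All 17 stayed positive in each removal. Of the sex chromosome genes Xist, Ddx3y, Kdm5d, Eif2s3y and Uty, 1 passed the filter and was not called (-0.11). Its signal was 1941, 6301, 4239 and 9970 on Apob replicates 1 to 4 and 4553 to 5560 on Pax3 arrays.

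Hsd3b5, a 3-keto-steroid reductase that is a marker of male liver, had the largest increase. Its signal was 880.1, 1629.8, 7895 and 4273 in Apob and 97.1, 460.3, 9.08 and 184 in Pax3 livers. The groups did not overlap, and values within each differed severalfold, highest in Apob replicate 3 and lowest in Pax3 replicate 3. The log2 difference was 4.25 ± 0.79 (limma adjusted p = 0.0278), and B6 read 309.6 to 835. Slco1a1, an organic anion transporter of the sinusoidal membrane, read 2895, 4301, 6874 and 6549 against 165, 1139, 60.3 and 815. Its log2 difference was 3.80 ± 0.69 (adjusted p = 0.0256), a second probe set gave 3.62, and B6 lay between the lines at 1325 to 2627. Hsd3b5 was not called without Apob replicate 2, 3 or 4 or Pax3 replicate 1 or 4 (adjusted p from 0.0511 to 0.0953), and Slco1a1 was not called without Apob replicate 2, 3 or 4 or Pax3 replicate 1 (adjusted p from 0.0586 to 0.0972). With no variance trend neither was called (adjusted p = 0.0531 and 0.0512).

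The complement genes C8a and C8b, neighbours on chromosome 4 that encode chains of the membrane attack complex, rose together. C8b read 4790.4, 4534, 6773 and 6174 in Apob, 1612, 2263, 1290.2 and 1963 in Pax3 and 3524, 2982, 2589 and 3355 in B6 livers. No 2 of these groups overlapped, and the log2 difference was 1.64 ± 0.20 (limma adjusted p = 0.00438). C8a read 9560.3, 12840.3, 19217 and 16552 against 3904, 5973, 5027 and 7563, with a log2 difference of 1.36 ± 0.24 (adjusted p = 0.0236). C8a was not called without Apob replicate 2, 3 or 4 or Pax3 replicate 1 or 2 (adjusted p from 0.0534 to 0.0925), nor with the spread estimated from all 36 arrays (adjusted p = 0.171). Other male-biased genes missed the threshold: Cyp4a12a, a fatty acid hydroxylase, gave 3.34 ± 0.70 (adjusted p = 0.0504), the fatty acid elongase Elovl3 gave 2.04 ± 0.69 (0.182) and Cyp7b1, an oxysterol hydroxylase, gave 1.11 ± 0.28 (0.0922). Cyp4a12a read 335, 54.2, 1544 and 164 in Apob livers, and its Pax3 signals, 15.2, 4.62, 5.95 and 2.57, were background.

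Genes known to be higher in female liver showed the opposite sign. All 15 tested genes of that list had negative differences (median -0.62), and 1 was called, Sult2a2, against 0.719% of all genes called lower. As for the male-biased list, the Apob arrays had shown this direction against B6. The list averaged -0.60, 0.62, -1.69 and -0.62 on the Apob arrays and 1.14, 1.12, -0.55 and 0.58 on the Pax3 arrays, so Apob replicate 2 was as high as Pax3 replicate 4, and Pax3 replicate 3 about as low as Apob replicates 1 and 4. B6 arrays averaged 0.53 to 1.16. Without Apob replicate 3, 12 of the 15 were negative. Without Pax3 replicate 3, 2 genes were called. Cyp2b13, a female-specific cytochrome, read 1414, 2876, 89.1 and 1563 against 8262, 6753, 258 and 5861 (-1.74, adjusted p = 0.456), with replicate 3 the lowest of both groups.

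**Figure D3:**
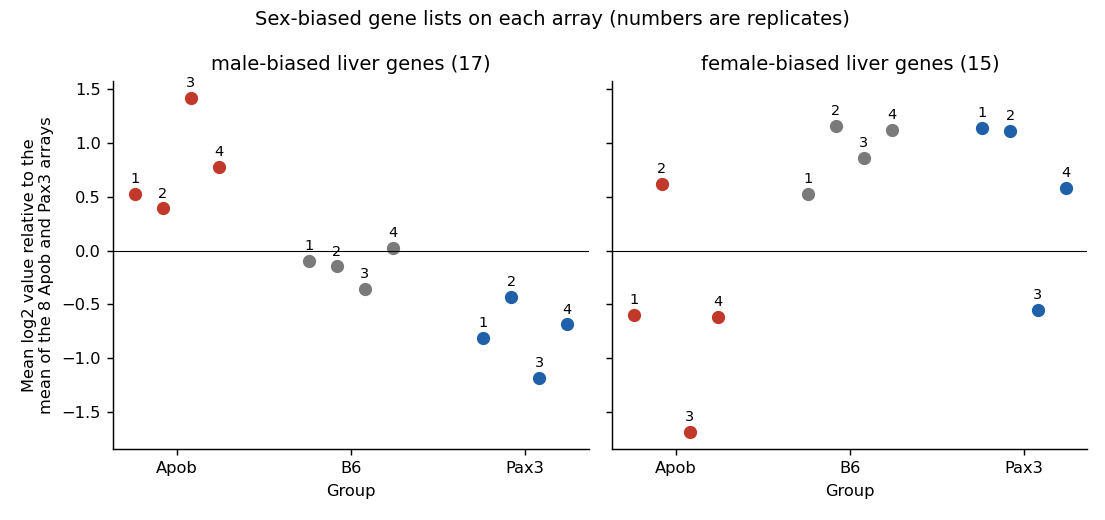
Mean log2(signal + 23) of the 17 male-biased and the 15 female-biased genes on each array, relative to the mean of the 8 Apob and Pax3 arrays (y axis), by group (x axis), with replicate numbers. For the male-biased list the Apob arrays (0.39 to 1.42) lay above the Pax3 arrays (-1.19 to -0.43). For the female-biased list the groups overlapped.

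Sult2a2, which sulfates steroids and bile acids, had the largest decrease of any called gene. Its signal was 803, 541, 126 and 135 on the Apob arrays and 18502, 6257, 5847 and 12679 on the Pax3 arrays, with no overlap, and 3480.3 to 8662 in B6. The log2 difference was -4.90 ± 0.55 (limma adjusted p = 0.00316), and the call held in every removal of 1 array. Sult2a8, another sulfotransferase of bile acids, went the other way at 2.11 (adjusted p = 0.105), from 12177, 12842, 1354 and 7478 in Pax3 to 29999, 23714, 32883 and 24078 in Apob livers, without passing the threshold. Probe sets of the Sult2a, Hsd3b and Mup families can pick up near-identical copies, so the member measured is uncertain.

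Among genes of bile acid synthesis and transport, Cyp7a1, Slco1a4 and Abcc2 fell and Slco1a1 rose. These were the only calls among 26 tested genes, 1 higher and 3 lower, against 0.297% and 0.719% of all genes. The list's median was 0.32. Cyp7a1, the hydroxylase that commits cholesterol to bile acids, read 949.5, 1449, 736 and 1909.6 in Apob and 3540.2, 4804, 7994 and 8218 in Pax3 livers. The groups did not overlap, while B6 ran from 1843 to 10950.3 and overlapped both. The log2 difference was -2.27 ± 0.33 (limma adjusted p = 0.00733), and a second probe set gave -1.23. With the spread estimated from all 36 arrays Cyp7a1 was not called (adjusted p = 0.0938), the only alternative in which it lost its call. Slco1a4, an organic anion transporter related to Slco1a1, read 1613, 1032, 705 and 1238 in Apob and 3801, 3294, 2764 and 4038 in Pax3 livers (-1.63 ± 0.23, adjusted p = 0.00718). Slco1a4 and Slco1a1 thus moved in opposite directions. Abcc2, the canalicular pump for conjugated organic anions, read 2246, 2438, 2258 and 2357 against 3507, 5129.8, 6042 and 4661 (-1.02 ± 0.17, adjusted p = 0.0146), and was not called without Apob replicate 3 or Pax3 replicate 2 (adjusted p from 0.0606 to 0.0654), nor with the spread from all 36 arrays (adjusted p = 0.0571). Cyp8b1, the sterol hydroxylase that sets the kind of bile acid made, gave 0.49 with an adjusted p of 0.591.

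**Figure D4:**
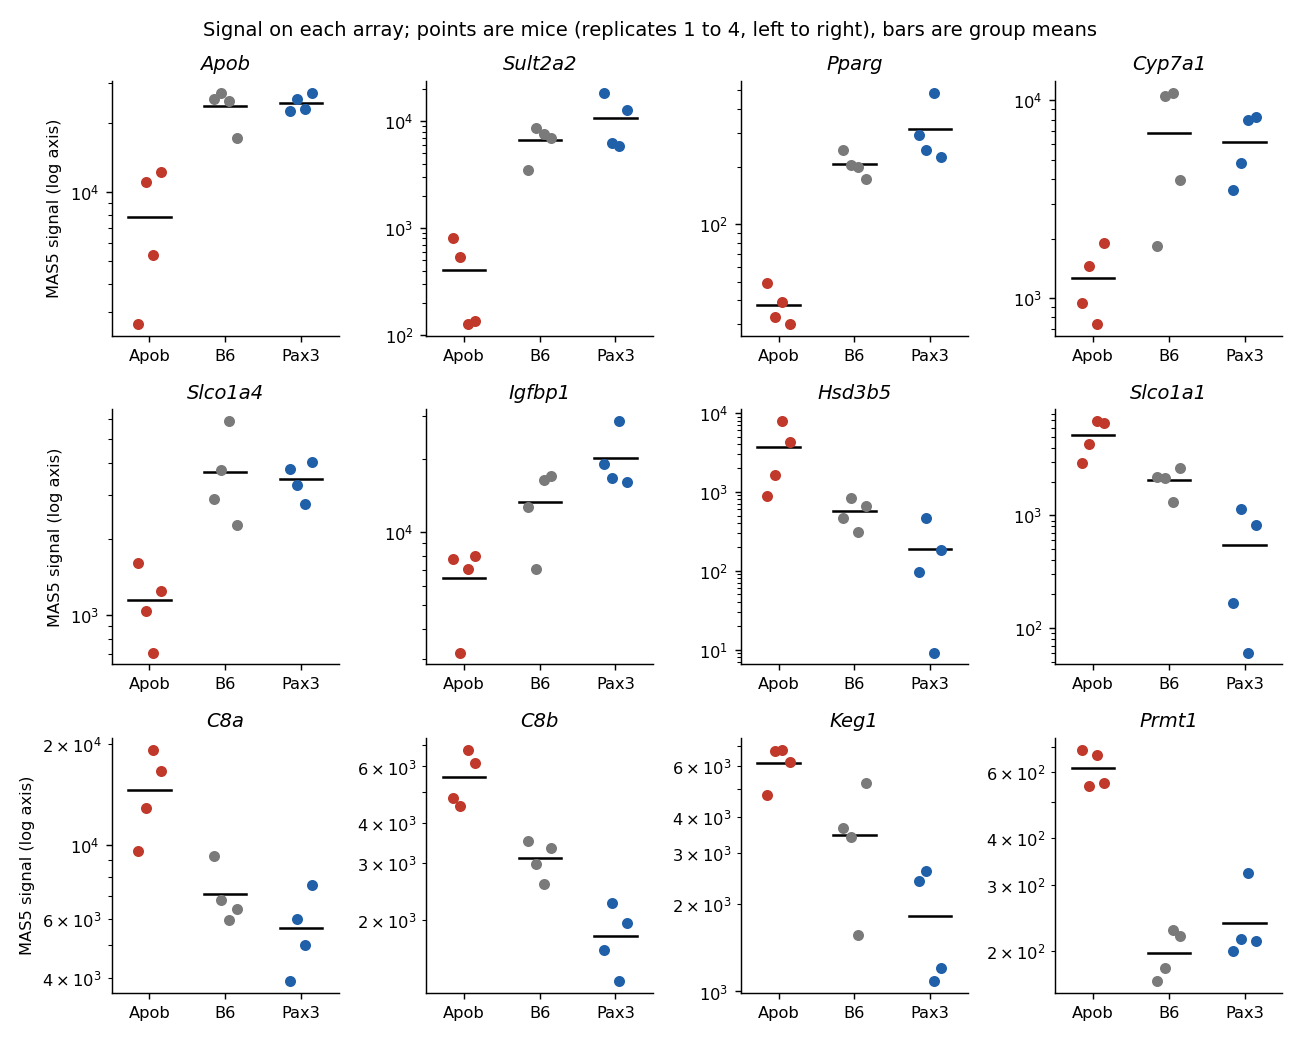
MAS5 signal (y axis, log scale) of 12 genes on each Apob, B6 and Pax3 array, 1 point per mouse with the group mean as a bar. In each of the 12 genes the Apob and Pax3 values did not overlap, and for C8b and Slco1a1 the B6 values lay between the lines.

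Pparg, a nuclear receptor of lipid storage, was low in Apob livers. It read 49.5, 32.9, 39.3 and 29.99 there, near background, and 294, 246, 487 and 225 in Pax3 livers, without overlap, and 173 to 245 in B6. The log2 difference was -2.41 ± 0.26 (limma adjusted p = 0.00316), and it ranged from -2.84 to -1.54 over the alternatives. The rest of its list did not follow: of 19 tested genes of Pparg and lipid droplets, Pparg alone was called. The list's median was -0.08, and 1.02% of all genes were called. Cidec and Plin4, coat proteins of the droplet, gave -0.90 and -1.18 (adjusted p = 0.511 and 0.277), and the fatty acid carrier Cd36 gave -0.32 (0.605).

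No gene of cholesterol synthesis was called by limma, and 17 of 20 had negative differences (median -0.56). An unadjusted p below 0.05 was seen in 4 of the 20, against 2163 of all 12802 tested genes. This list, too, is known to be low in these Apob arrays against B6. Hmgcs1, which makes the substrate of HMG-CoA reductase, read 6504, 6269, 5879 and 6179 in Apob and 18872, 17849, 9310.4 and 6846 in Pax3 livers. The Apob values were close together and below every Pax3 value, and the Pax3 values spread widely (-0.96 ± 0.28, adjusted p = 0.137). The squalene synthase Fdft1 gave -0.61 ± 0.18 (0.144). On the Pax3 arrays the list averaged 0.98, 0.75, 0.04 and -0.75 relative to the mean of the 8 arrays, against -0.48 to -0.10 on the Apob arrays, so Pax3 replicate 4 lay below every Apob array.

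Fatty acid and triglyceride synthesis had a median of -0.29, with 16 of 24 genes negative and 0 called by limma. Of the 24, 6 had an unadjusted p below 0.05, against 2163 of all 12802. Mfsd2a, a carrier of lysophosphatidylcholine, read 1687, 979, 2354 and 1457 against 3624, 3019.5, 3897 and 8426, with no overlap (-1.48 ± 0.32, adjusted p = 0.0561). Fads1, a desaturase of polyunsaturated fatty acids, gave -0.72 ± 0.16 (0.0628). Of 32 genes of fatty acid oxidation and PPAR alpha targets, 20 were positive (median 0.11) and 2 were called, against 1.02% of all genes. They were the mitochondrial dehydrogenase Acads (0.71, adjusted p = 0.0367) and the peroxisomal thiolase Acaa1a (0.83, adjusted p = 0.0178). Acads lost its call without Apob replicate 1, 2, 3 or 4 or Pax3 replicate 1, 2, 3 or 4 (adjusted p from 0.0595 to 0.121) and with the spread from all 36 arrays (adjusted p = 0.329), and Acaa1a without Apob replicate 3 or Pax3 replicate 1 or 2 (adjusted p from 0.0547 to 0.0909). Another Acaa1a probe set gave 0.19, and probe sets shared with Acaa1b gave 0.07 and 0.12. Of 26 lipoprotein genes only Apob was called (median 0.16), against 1.02% of all genes. Mttp, which loads lipid onto apolipoprotein B, gave -0.14 (adjusted p = 0.689).

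Genes of glucose handling gave 1 call among 23 tested, Igfbp1, against 1.02% of all genes (list median -0.12). Of the 23, 11 had an unadjusted p below 0.05, against 2163 of all 12802. Igfbp1, an insulin-suppressed binding protein of insulin-like growth factors, read 7743, 3177, 7067 and 7951 in Apob and 19042, 16738, 28714 and 16043 in Pax3 livers. The groups did not overlap, and Apob replicate 2 was the lowest (-1.68 ± 0.29, limma adjusted p = 0.021). It was not called without Apob replicate 3 or Pax3 replicate 1 (adjusted p from 0.0521 to 0.0606). Ppp1r3g, a glycogen-targeting subunit of protein phosphatase 1, was among the largest decreases, with 243, 80.7, 72.9 and 136 against 1072, 695, 2094 and 738 (-2.89 ± 0.38, adjusted p = 0.00543), and its call held in every removal of 1 array. Mme, the peptidase neprilysin, read 516, 628, 512 and 293 against 2276, 2100.0, 1469 and 1502 (-1.89 ± 0.23, adjusted p = 0.00515), and a second probe set gave -0.91. With the spread from all 36 arrays Mme was not called (adjusted p = 0.103), the only alternative in which it lost its call.

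The folate pathway gave no call. The labels tell the lines apart by their response to dietary folic acid, and list no such treatment of these mice. Of 25 tested genes of the folate cycle and folate transport 12 were positive and 13 negative, and the median was -0.02. Limma called 0, against 1.02% of all genes. An unadjusted p below 0.05 was seen in 3, against 2163 of all 12802. Folr2, a folate receptor of macrophages, read 923, 1316, 893 and 1056 in Apob and 677, 762, 704 and 710.4 in Pax3 livers, with no overlap (0.52 ± 0.15, adjusted p = 0.137). Ftcd, which breaks down histidine to feed one-carbon units into folate, gave 0.42 ± 0.14 (0.185), and Mthfd1, the trifunctional folate enzyme, gave -0.39 ± 0.19 (0.329). Folr2 and Ftcd were not called under any alternative tried. These values do not show that the pathway is alike in both lines.

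Of 24 genes of the methionine cycle and methyl transfer, 1 was called (list median 0.10), against 1.02% of all genes. It was Prmt1, the main asymmetric arginine methyltransferase. Prmt1 read 689, 552, 665 and 561 in Apob livers, 200.4, 216, 324 and 212 in Pax3 livers and 166, 181, 227 and 219 in B6 livers. Every Apob value was above every Pax3 and B6 value, which overlapped each other. The log2 difference was 1.31 ± 0.18 (limma adjusted p = 0.00647), and the call held in the 20 alternatives that tested it. The alternative without probe sets of shared targets left out all names ending in _s_at, _x_at or _a_at. It removed the only Prmt1 probe set, which ends in _a_at, and this does not show a target in another gene. The other arginine methyltransferases of the list stayed near 0, with Prmt5 at -0.13, Prmt7 at -0.11 and Carm1 at -0.33 (adjusted p = 0.702, 0.84 and 0.32). Bhmt, which remethylates homocysteine with betaine, gave 0.66 (0.27), and Chdh, which makes betaine from choline, gave -0.69 (0.123).

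Among the other large increases, Mup10, a major urinary protein, read 1317, 3098, 2206 and 2367 against 569, 544, 33.97 and 184 (3.11 ± 0.61, limma adjusted p = 0.0367). Mup10 was not called without Apob replicate 1, 2, 3 or 4 or Pax3 replicate 4 (adjusted p from 0.0602 to 0.108). Keg1, a glycine N-acyltransferase-like protein of liver and kidney, read 4759.6, 6726, 6813 and 6188 against 2403, 2591, 1084 and 1200.4, with no overlap (1.83 ± 0.27, adjusted p = 0.009), and kept its call in every alternative. So did Enho, which encodes the secreted peptide adropin, at 1.35 ± 0.20 (adjusted p = 0.009), with 1761, 2383, 1744 and 1421 in Apob and 625, 941, 534 and 714 in Pax3 livers. In Enho it was the Pax3 values that lay below the B6 range of 1325 to 2015, and its other tested probe sets gave 1.37 and 0.00. Nat1, an arylamine N-acetyltransferase, gave 1.94 from Pax3 signals near background (26.6, 106, 31.6 and 27.99), and its call was lost without Apob replicate 1, 2 or 4 or Pax3 replicate 1, 3 or 4 (adjusted p from 0.0516 to 0.078).

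The remaining large increases were in Tspan32, Asic5 and Prm1. Tspan32, a tetraspanin, gave 1.57 (limma adjusted p = 0.0226), and Asic5, a bile acid-sensitive ion channel, gave 1.55 (0.022). Prm1, a protamine of sperm, gave 1.44 (0.0123). The other probe sets of Tspan32 and Prm1 were at background and below the filter, so each call rests on 1 probe set. That of Prm1 averaged 1151 in Apob and 405 in Pax3 livers, while its others averaged 1.37 to 5.54 in these lines. Leaving out probe sets of shared targets removed the called Prm1 probe set, so the transcript it measured is uncertain. Tspan32 lost its call without Apob replicate 2, 3 or 4 or Pax3 replicate 4 (adjusted p from 0.0544 to 0.074), Asic5 without Apob replicate 1 or 3 or Pax3 replicate 2 or 4 (adjusted p from 0.0511 to 0.0921) and Prm1 without Apob replicate 3 (adjusted p = 0.0606).

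Several of the largest decreases were not shared by other probe sets of the same gene. The Ass1 probe set that names that gene alone read 193, 147, 156 and 194 in Apob and 885, 1118, 934 and 2503 in Pax3 livers (-2.69 ± 0.29, limma adjusted p = 0.00316). Ass1 encodes argininosuccinate synthase, an abundant enzyme of the urea cycle. A far brighter probe set, paired with both Ass1 and Gm5424, read 45649, 35965, 37740.2 and 33805 in Apob and 32117, 23439, 24836 and 24958 in Pax3 livers, which is 0.54 ± 0.18 in the opposite direction. The call of Ass1 therefore belongs to the dim probe set, and no decrease of the enzyme's main transcript can be read from it. Of 20 tested genes of the urea cycle and amino acids, Ass1 was the only call (list median 0.13), against 1.02% of all genes.

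Erdr1, a multi-copy transcript of the sex chromosomes' shared end, gave -3.44 (limma adjusted p = 0.00543) at one probe set and -0.29 at the other. Without probe sets of shared targets Erdr1 was not called (adjusted p = 0.616). Taok1, a stress kinase, gave -2.58 while its 6 other probe sets gave -0.78 to 1.00. Luc7l2, a splicing factor, gave -2.07 with 5 other tested probe sets from -0.87 to 0.20, and Crim1, a transmembrane regulator of bone morphogenetic proteins, gave -2.15 with another at 0.19. Taok1 was not called without Apob replicate 1 or 3 or Pax3 replicate 1, 2, 3 or 4 (adjusted p from 0.0734 to 0.129), Luc7l2 without Apob replicate 3 or Pax3 replicate 1, 2 or 4 (adjusted p from 0.0554 to 0.106) and Crim1 without Apob replicate 1 or 3 or Pax3 replicate 2, 3 or 4 (adjusted p from 0.0519 to 0.106). With the spread from all 36 arrays Taok1 and Luc7l2 were not called (adjusted p = 0.0529 and 0.137). Gdap10, a noncoding RNA, read 227, 316, 446 and 414 against 782, 1948, 1211 and 1704 (-1.90 ± 0.28, adjusted p = 0.009), and kept its call in every alternative.

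Over all genes called lower, 73 of 92 had other tested probe sets, 184 in all, of which 140 were negative and 60 of these had an unadjusted p below 0.05. Their median was -0.29, against -1.21 for the probe sets used. For genes called higher, 18 of 22 other probe sets were positive (median 0.26 against 1.04). When every probe set was tested, 729 of 26207 were called (2.78%), 577 of them lower. Probe sets with no single gene symbol were called in 172 of 3915 cases (4.39%), 156 of them lower. Within the genes called lower, Apob replicates 1 and 3 held the 2 lowest Apob values in 50 of 92 (54.3%), against 3920 of the 12802 tested genes (30.6%).

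Of 29 cell cycle genes, 1 was called, Cdk6, a kinase of the G1 phase (list median -0.26), against 1.02% of all genes. Cdk6 read 561, 387, 503 and 478 in Apob and 1122, 1196, 1751 and 1128 in Pax3 livers (-1.37 ± 0.18, limma adjusted p = 0.00543), with a second probe set at -1.27, and its call held in every alternative. The mean of the list was high on 1 array, Pax3 replicate 3 (0.96 relative to the mean of the 8 arrays), and -0.25 to 0.02 on the other Pax3 arrays. No gene was called by limma in the lists for cytochromes P450 (29 tested, median 0.14), glutathione transferases and Nrf2 targets (23, -0.30), the circadian clock (17, -0.05), the acute phase (24, 0.26), interferon (22, 0.05), the unfolded protein response (20, 0.24) or heat shock (11, 0.38). At an unadjusted p below 0.05 these held 7, 6, 4, 4, 2, 2 and 5 genes, against 2163 of all 12802 tested. The lowest adjusted p among them was that of Gclc, which makes the precursor of glutathione, at 0.0678 (-0.81). A second Gclc probe set overlapped between the groups (mean signal 6104 against 5759, log2 difference 0.05). Next was by the glutathione transferase Gstm2 (-0.86, adjusted p = 0.0742).

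**Figure D5:**
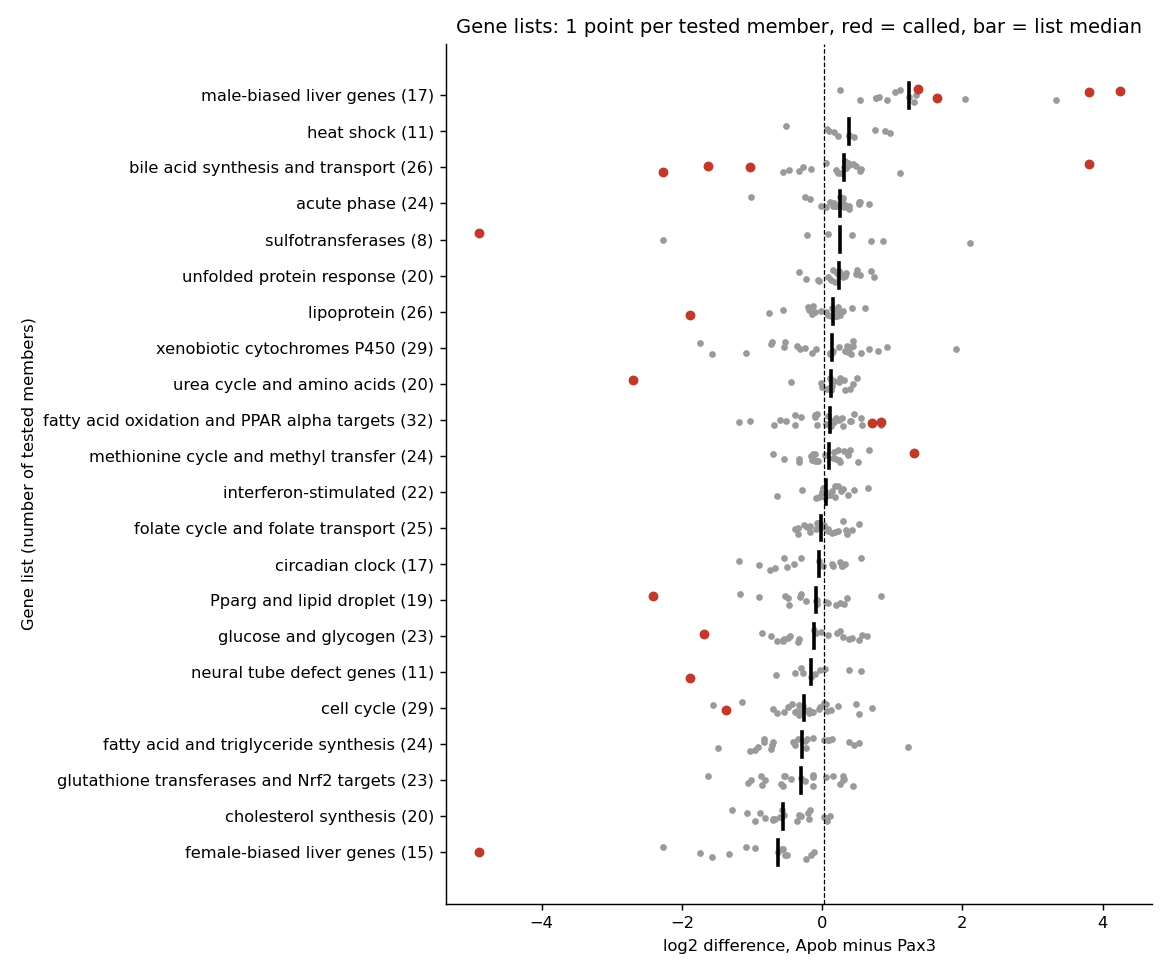
Log2 difference, Apob minus Pax3 (x axis), of each tested member of 22 gene lists (y axis), with called genes in red, the list median as a bar and the median of all tested genes as a dashed line. The male-biased list has the highest median (1.24) and the female-biased list the lowest (-0.62).

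Markers of the cell types of liver were set beside these results. The 6 tested hepatocyte markers summed to a signal of 255366 to 299464 on Apob and 203712 to 252801 on Pax3 arrays, without overlap, against 292430 to 317485 in B6, and each was 0.16 to 0.29 higher in Apob with none called. Kupffer cell markers overlapped (31586 to 39162 against 27693 to 43166), as did those of stellate cells (17938 to 20206 against 14406 to 36509). The overlap of the stellate sums rests on Pax3 replicate 3 (36509), since the other Pax3 arrays, at 14406 to 16076, lay below every Apob array. Marker by marker there was no such shift: 4 of the 10 were higher and 6 lower in Apob (median -0.09), and each overlapped between the lines. Pericentral hepatocyte markers were 118191 to 133979 on Apob arrays and 121750 to 124486 on 3 Pax3 arrays, but 58690 on Pax3 replicate 3. Red cell markers summed to 995 to 1731 against 429 to 736, without overlap. Of the 2 that were tested, Alas2, the heme synthesis enzyme of red cells, gave 1.28 (limma adjusted p = 0.0545) and Hbb-b2, a globin, gave 0.36, and neither was called. Hba-a1 and Hba-a2, the alpha globins, were near background. Endothelial markers summed to 17768 to 18746 against 15037 to 16730, with 0 of 10 called by limma. Of the 10, 7 were higher and 3 lower in Apob (median 0.07), and each overlapped between the lines. The bile duct markers Krt7 and Sox9 and the adipocyte markers Adipoq and Lep were near background in both lines, while Fabp4, the 1 tested adipocyte marker, read 1223 and 1348 on average and was not called (-0.08). The pancreas list summed to 3238 to 4147 against 1181 to 1988, and of its 4 tested members Cela1, an elastase also expressed in liver, was called, while Cpa1, Cpb1 and Ctrb1 were near background. In bulk tissue, fewer cells of a type and less RNA per cell cannot be told apart, and what part these shifts had in the gene results was not tested.

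Genes near the mutated loci were called about as often as elsewhere. Of the 68 tested genes within 50 tested genes of Apob in RefSeq order, 1 was called (1.47%), and of the 100 around Pax3 also 1 (1%), against 1.02% of all. They were Laptm4a, a lysosomal membrane protein near Apob (0.66 ± 0.13, limma adjusted p = 0.039), and Rnf25, a ubiquitin ligase near Pax3 (0.83 ± 0.15, adjusted p = 0.0227). Laptm4a was not called without Apob replicate 2, 3 or 4 or Pax3 replicate 1, 2, 3 or 4 (adjusted p from 0.0589 to 0.141), and Rnf25 was not called without Apob replicate 2, 3 or 4 or Pax3 replicate 1 or 2 (adjusted p from 0.054 to 0.0793) or with the spread from all 36 arrays (adjusted p = 0.158).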

How the data were processed

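Total RNA (3 µg per liver) was labelled with biotin and hybridised to Affymetrix arrays, per the labels' protocols. The deposited values are MAS5 signals, a linear intensity per probe set, per the submitters' processing notes; the MAS5 version is not given in the sources used here. The trimmed mean of each array (2% left out at each end) was 500 as computed from the deposited intensity values. MAS5 scales each array by 1 factor, with no quantile step, and values near background vary most.

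Of 45037 non-control probe sets, 34945 were paired with 1 gene symbol, 932 with several and 9160 with none in the platform annotation, and 34741 of the first had a current RefSeq symbol (GRCm38.p6). The offset of 23 is added before the log2. Probe sets with a mean log2 above the 40th percentile of the 8 arrays (6.55, a signal of 70.7) were kept, and the brightest stood for its gene, which left 12802 genes of 18193 symbols. The 8 arrays were fitted with limma 3.58.1 (R 4.3.3, variance trend, no block), and the procedure was tested on simulated data. The number of arrays limits the precision.

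Members, lists, alternatives and the naming rule were chosen with earlier results of these data known. Genes were named by rule: Apob and Pax3, the 12 largest called changes each way without overlap and with a mean signal of at least 200 in the higher group, up to 3 called members per list or else the 2 with the smallest p, and called genes near the mutated loci. A few others, mostly list members given as values, were named after their values were seen. Plots used matplotlib 3.10.9 (Python 3.11.15).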

Additional observations from a re-analysis of the deposited data

Results flagged for a closer look

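In 4 of 134 sets of 4 arrays checked, a single mouse stood apart from the rest of its group by Dixon's 95% criterion. Chance gives this in about 1 set in 20. Each set was a named gene, a gene list mean or an array quality measure in 1 group, and the 4 flagged were genes. Prmt1 was highest in Pax3 replicate 3, with a signal of 324 against 200.4 to 216 on the other Pax3 arrays. Cdk6 was also highest in Pax3 replicate 3, with 1751 against 1122 to 1196. Nat1 was highest in Pax3 replicate 2, with 106 against 26.6 to 31.6. Igfbp1 was lowest in Apob replicate 2, with 3177 against 7067 to 7951.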

How the results depend on the processing

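The main fit called 130 of 12802 genes, and the counts shared below are of these 130. Limma called 383 with array weights (162 higher and 221 lower, 130 shared) and 154 with the spread from all 36 arrays (85 shared). With the spread from 34 arrays, without 2 arrays of doubtful RNA in other groups, it called 476 (123 shared). Of 26207 probe sets it called 729 when all were tested. Other normalizations, offsets and filters gave 115 to 192 (38 higher and 154 lower with median centring, the 192), and no variance trend 93. Leaving out each array gave 45 to 121. The replicate block gave 133 (102 shared). Deviations of arrays with the same number correlated at -0.06 to 0.16, and those with other numbers at -0.17 to 0.13. So few values cannot tell whether the numbers pair mice. The Apob difference was -1.89 with an adjusted p just above the threshold at an offset of 5, 0.0681 with no filter and 0.0806 with no variance trend, and -2.18 to -1.45 over the removals of 1 array (adjusted p 0.00584 to 0.142 over all alternatives). Of 32 called genes named by the rule, 11 kept their call in all alternatives that tested them, 21 lost it in at least 1, and none changed sign. None of the 32 lost its call with the spread from 34 arrays. Quantile normalization moved the median of all genes from 0.03 to 0.04 and centring moved it to 0.00. The male-biased list held 1 called gene with no variance trend and 9 with array weights. Dim genes such as Pax3 (0.40 to 1.51 over the offsets) are limited by signal over background.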

Other observations

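When all probe sets were tested, another probe set was called in the same direction in 4 of the 14 genes called higher that have one and in 14 of the 73 called lower. Of these genes, 2 and 7 were also called whichever array was left out, and they were picked out by that count after their values were seen. Nat8f2, an N-acetyltransferase-like gene, was higher at 3 probe sets, with 14716, 16968, 16253 and 15339 in Apob and 8541, 6734, 6227 and 8802 in Pax3 livers (1.07 ± 0.15, limma adjusted p = 0.00647) and 1.35 and 1.41 at the others. Enho was the other increase. The decreases were Cdk6, Malat1, Alcam, Bpnt2, Pdpr, Frmd4b and Gna13.

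Malat1, an abundant nuclear noncoding RNA, read 366, 282, 434 and 726 in Apob and 1203, 2343, 1634 and 1316 in Pax3 livers, without overlap (-1.83 ± 0.28, limma adjusted p = 0.00989). Its 5 other probe sets ran from -1.49 to 0.29. Alcam, a cell adhesion molecule, read 629, 832, 676 and 949 against 1543, 1890.0, 3049 and 2347 (-1.46 ± 0.21, adjusted p = 0.00844). Bpnt2, a Golgi phosphatase that clears a by-product of sulfation reactions, read 2185, 1694, 1793 and 1670.4 against 3939, 4152, 4318 and 4865 (-1.23 ± 0.14, adjusted p = 0.00316), and its other probe sets gave -0.80 and -0.37. Pdpr, a regulatory subunit of pyruvate dehydrogenase phosphatase, gave -1.18, Frmd4b, a scaffold protein, gave -1.16, and Gna13, a G protein alpha subunit, gave -0.90 (adjusted p = 0.00609, 0.00543 and 0.00733). Other probe sets ran from -1.63 to 0.16 for Pdpr, -1.67 to -0.74 for Frmd4b and -0.85 to 0.16 for Gna13.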
